A study of Mus musculus with 5 samples.

Results

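The genes described here are the Wnt ligands, their receptors, their secreted modulators and a few of their targets in oviductal stromal cells. They were chosen by gene symbol, and earlier results of these data were known when the list was drawn up. The list holds every Wnt, frizzled (Fzd), Sfrp1 to Sfrp5, Dkk1 to Dkk4 and Rspo1 to Rspo4 row of the table. It also holds Lgr4 to Lgr6, Lrp5, Lrp6, Wif1, Frzb, Notum, Axin2, Lef1, Tcf7, Znrf3 and Rnf43. This gave 54 of 23857 listed genes: 19 ligands, 12 receptors, 11 secreted inhibitors, 9 genes of the R-spondin axis and 3 nuclear factors and feedback genes. RNA was sequenced from YFP-positive stromal cells sorted from the fallopian tubes of young adult female mice, with 1 mouse per library, so that p-values measure the spread between these 5 mice. The controls, mice 2 and 3, are labelled wild-type and had the Pdgfra-Cre transgene with the YFP reporter R26Y. Mice 1, 2 and 3 of the other group had both of these and floxed Esr1 alleles, Esr1(fl/fl), and are called knockout mice below. The Cre follows the promoter of Pdgfra, a mesenchymal receptor gene, and is shared by both groups, so YFP marks cells in which it is or was active. The comparison asks which genes depend on Esr1, the gene of estrogen receptor alpha, in these cells.

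Wnt proteins are secreted, lipid-modified signals that bind a frizzled receptor together with LRP5 or LRP6. In the canonical branch this spares beta-catenin from destruction, and beta-catenin then acts on genes through TCF and LEF factors. Secreted inhibitors catch the ligand (the SFRP family, FRZB, WIF1), strip its lipid (NOTUM) or block the co-receptor (DKK1, DKK2, DKK4). R-spondins, acting through LGR receptors, remove the ubiquitin ligases ZNRF3 and RNF43, which would otherwise clear frizzled from the cell surface. In the female tract, Wnt4, Wnt5a and Wnt7a are known for their part in forming and patterning the Müllerian ducts, from which the oviduct arises.

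Values are TPM, which divide each gene's reads by its length and set every library to the same total. A single RNA, Rpph1, took 18.6% and 21.3% of that total in control mice 2 and 3. It took 22.3%, 14.3% and 13.1% in knockout mice 1, 2 and 3, and all other genes share the rest. An alternative scaling left out Rpph1 and Rn45s. Differences are in log2(TPM + 1), a scale that shrinks those of low genes. The groups are those of the labels, and Esr1 itself does not separate them. Esr1 measured 83.3 and 77.6 TPM in control mice 2 and 3, against 28.9, 85.0 and 169.9 TPM in knockout mice 1, 2 and 3, so only the library labelled knockout mouse 1 lay below the controls (log2 fold change -0.10, SE 0.64, limma adjusted p 0.948). Per-gene values do not show whether the floxed part of the transcript was missing. All directions below are for the libraries labelled knockout against the controls. Fits without knockout mouse 1 keep only knockout libraries whose Esr1 was not below the controls. The stromal marker Pdgfra lay between 165 and 298 TPM in all 5 libraries. Epithelial markers were also present: their 10 genes summed to 2837 and 3159 TPM in the controls, 2058 TPM in knockout mouse 1, and 11807 and 12702 TPM in knockout mice 2 and 3, most of it Ovgp1, the oviductal glycoprotein of secretory cells. The 8 immune markers summed to 2150 and 2742 TPM in the controls and to 1672, 1083 and 747 TPM in knockout mice 1, 2 and 3, and 7 of the 8 lay below both controls in all 3. The depth estimated from the steps between low values was 66.6% of control mouse 2 in control mouse 3 and 48.3%, 82.8% and 67.3% in knockout mice 1, 2 and 3. In sorted bulk cells, fewer cells of a type and less RNA per cell cannot be told apart.

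The start-site regions of the members that stood out were read to show what lies in front of them. RefSeq entries for GRCm38.p6 matched 35 of the 54 members. Of the members with a mean of at least 5 TPM and an unadjusted p under 0.05, 3 had a single entry whose start is also the GENCODE M21 gene start, and the 250 bases before that start are printed in the direction of the gene. Rspo1 (chr4:124986180-124986429, plus strand) was lower in the knockout libraries. Wnt16 (chr6:22287977-22288226, plus strand) and Wnt6 (chr1:74771642-74771891, plus strand) were higher. Capitals mark estrogen response element half-sites, GGTCA or its reverse TGACC.
Rspo1: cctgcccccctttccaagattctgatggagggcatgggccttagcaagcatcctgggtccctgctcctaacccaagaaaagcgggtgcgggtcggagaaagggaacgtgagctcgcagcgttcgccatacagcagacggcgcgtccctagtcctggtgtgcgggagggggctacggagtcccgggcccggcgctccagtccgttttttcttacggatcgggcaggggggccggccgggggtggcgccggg
Wnt16: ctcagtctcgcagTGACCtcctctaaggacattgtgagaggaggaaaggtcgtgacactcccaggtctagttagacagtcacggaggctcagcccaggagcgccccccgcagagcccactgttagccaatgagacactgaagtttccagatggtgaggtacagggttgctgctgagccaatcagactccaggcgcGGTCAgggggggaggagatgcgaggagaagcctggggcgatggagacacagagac
Wnt6: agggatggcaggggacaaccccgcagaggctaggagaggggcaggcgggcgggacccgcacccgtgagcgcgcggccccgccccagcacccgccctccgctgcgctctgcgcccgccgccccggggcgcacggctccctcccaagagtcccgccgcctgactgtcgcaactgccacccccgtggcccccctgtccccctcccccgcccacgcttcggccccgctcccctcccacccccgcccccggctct
The Wnt16 window holds 2 half-sites and the other 2 windows hold none. A half-site lay in 17 of the 43 windows of the members (39.5%), against 35.2% of all 32851 windows of this length. The full estrogen response element, both half-sites in that order with any 3 bases between them, was in 0 of the 43 windows and in 0.0639% of all windows. A TCF/LEF motif (CTTTG followed by A or T at each of the next 2 positions, on either strand) was in 5 of the 43 windows (11.6%), against 14.8% of all windows.

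After the filter on low values (at least 1 TPM in at least 2 libraries) 51 of the 54 members were tested. Rspo2, Wnt3a and Dkk1 were not. No member had an adjusted p under 0.05 (limma on log2(TPM + 1), Benjamini-Hochberg over 19292 genes), where 0.0259% of all tested genes did. Members with an unadjusted p under 0.05 numbered 8 on the higher side (15.7% of those tested), against a background of 3.7%, and 4 on the lower side (7.84%), against 9.87%. The higher members were Fzd1, Rspo3, Sfrp1, Tcf7, Wnt16, Wnt5a, Wnt5b and Wnt6, and the lower were Frzb, Rspo1, Wif1 and Wnt10b. The count of higher members was 15 without knockout mouse 1, where 17.7% of all genes were higher at this threshold. It was 3 without control mouse 2 and 4 without control mouse 3, where 1.6% and 2.18% of all genes were. Groups did not overlap for 11 higher members (background 11.9% of all genes, members 21.6%) and 10 lower members (background 21.9%, members 19.6%). Without knockout mouse 1 these were 20 and 14 (34.8% and 27.9% of all genes), and without control mouse 3 there were 17 lower (30.8% of all genes). With quantile normalization they were 11 and 6 (16.5% and 15.9% of all genes). The median log2 fold change of the tested members was -0.078, beside -0.022 over all tested genes, and it was 0.087 with quantile normalization and 0.31 among members with a mean of at least 5 TPM.

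**Figure D1:**
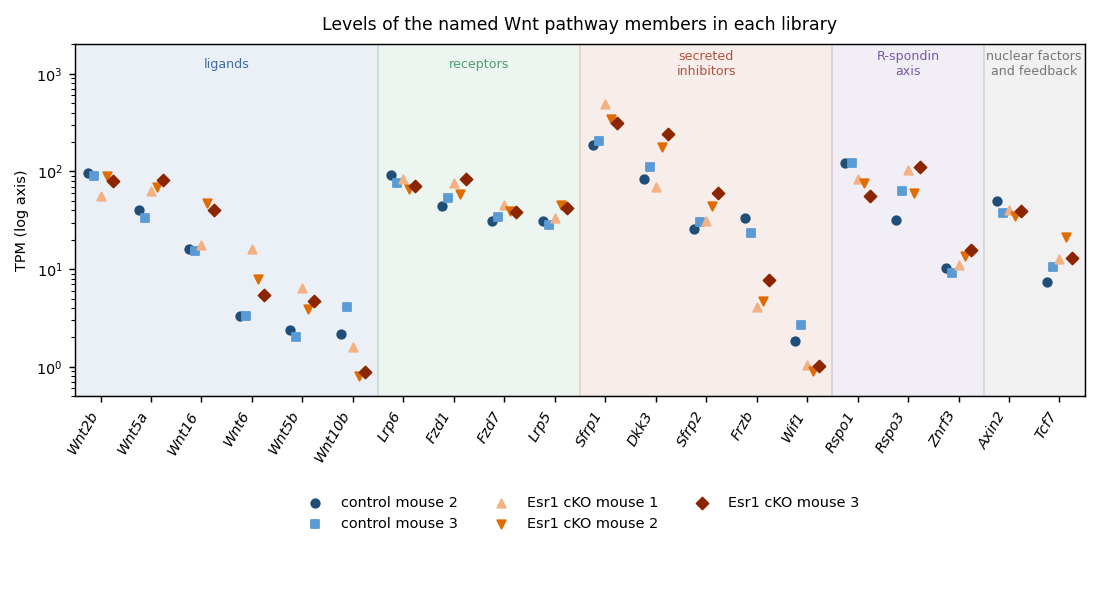
TPM on a log axis for the 20 named members, grouped by role, with 1 point per library (blue, 2 controls; orange to brown, 3 knockout mice). Frzb and Rspo1 lie lower in all 3 knockout libraries than in both controls, and Sfrp1, Wnt5a, Wnt5b and Wnt6 lie higher.

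The ligands were led by 4 genes. Wnt2b, a canonical ligand of mesenchyme, measured 95.5 and 88.9 TPM in control mice 2 and 3, against 56.1, 90.1 and 79.2 TPM in knockout mice 1, 2 and 3. The value of knockout mouse 2 lay between the controls, so the groups overlapped (log2 fold change -0.32, SE 0.23, limma adjusted p 0.534). Wnt5a, best known for signalling without beta-catenin, measured 40.2 and 33.7 TPM in the controls, against 62.4, 68.5 and 81.0 TPM in the knockout libraries. All 3 lay above both controls, and the group means were 37.0 ± 4.55 (SD, n = 2) and 70.6 ± 9.47 TPM (SD, n = 3). Wnt5a had a log2 fold change of 0.91 (SE 0.18, limma adjusted p 0.162), which ranged from 0.79 to 1.04 over the fits leaving out 1 library and was 1.00 with adjusted p 0.0246 without mouse 1 (adjusted p 0.0181 to 0.748 over 15 alternatives). Its exact permutation p was 0.1, the smallest that 2 against 3 libraries can give. Wnt5a (GRCm38 chr14:28504750-28527448, plus strand) has an antisense gene over its exons in GENCODE M21, Gm2670, and the counting is not stated to use strand. The same limit applies to Axin2, Fzd5, Fzd6, Lef1, Notum, Rspo3, Sfrp2, Wnt11 and Wnt7b, whose exons also overlap antisense genes.

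As shares of the ligand sum, Wnt2b took 41.5% and 40.0% in the controls and 24.2%, 33.2% and 31.1% in knockout mice 1, 2 and 3. Wnt5a took 17.5% and 15.2% in the controls and 26.9%, 25.2% and 31.8% in the knockout libraries. Wnt2b was thus the most abundant ligand in both controls and in knockout mouse 2, and Wnt5a in knockout mice 1 and 3, where in mouse 3 the pair was nearly level. The sum over all 19 ligands differed less, with 230.0 and 222 TPM in the controls and 232, 272 and 255 TPM in the knockout libraries.

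Wnt16 measured 16.0 and 15.3 TPM in the controls, against 17.6, 47.5 and 40.3 TPM in knockout mice 1, 2 and 3. Mouse 1 was close to the controls, while mice 2 and 3 were well above them (log2 fold change 1.00, SE 0.40, limma adjusted p 0.351, and 1.43 with adjusted p 0.0140 without mouse 1, 0.00772 to 0.937 over 15 alternatives). Wnt4, the ligand needed for the Müllerian duct to form, measured 32.7 and 34.9 TPM in the controls, against 39.0, 19.9 and 19.3 TPM in knockout mice 1, 2 and 3. It was described after its values were seen: mice 2 and 3 were below both controls and mouse 1 was above them (log2 fold change -0.44, SE 0.31, limma adjusted p 0.538, and -0.76 with adjusted p 0.0319 without mouse 1, 0.0304 to 0.937 over 15 alternatives). Wnt4 was thus the more abundant of the pair in both controls and knockout mouse 1, and Wnt16 in knockout mice 2 and 3.

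Wnt6 measured 3.29 and 3.28 TPM in the controls, against 16.2, 7.92 and 5.46 TPM in knockout mice 1, 2 and 3. The controls agreed closely, all 3 knockout libraries lay above them and mouse 1 was highest (log2 fold change 1.22, SE 0.41, limma adjusted p 0.303). Wnt5b, a close relative of Wnt5a, measured 2.39 and 2.01 TPM in the controls, against 6.44, 3.92 and 4.70 TPM in the knockout libraries (log2 fold change 0.89, SE 0.27, limma adjusted p 0.268). For both, the highest library was knockout mouse 1. Wnt10b measured 2.19 and 4.06 TPM in the controls, against 1.60, 0.81 and 0.88 TPM in the knockout libraries (log2 fold change -0.96, SE 0.33, limma adjusted p 0.316).

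The remaining ligands were below 10 TPM on average. Wnt9a, Wnt11, Wnt2 and Wnt7b had means over the 5 libraries from 3.94 TPM (Wnt7b) to 9.26 TPM (Wnt9a). Wnt7a, the ligand of Müllerian epithelium, measured 1.44 and 1.08 TPM in the controls, against 1.05, 1.35 and 0.30 TPM in the knockout libraries. Its groups overlapped. Of the 18 tested ligands 5 had a fold change above 0 and 13 below, with a median of -0.34. Over all 19292 tested genes 9221 were above 0 and 10071 below, with a median of -0.022. The lower ligands include Wnt1, Wnt3, Wnt7a, Wnt8a, Wnt8b, Wnt9b, Wnt10a and Wnt10b, all with means from 0.5 to 2 TPM. All tested genes in that range had a median of -0.49.

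**Figure D2:**
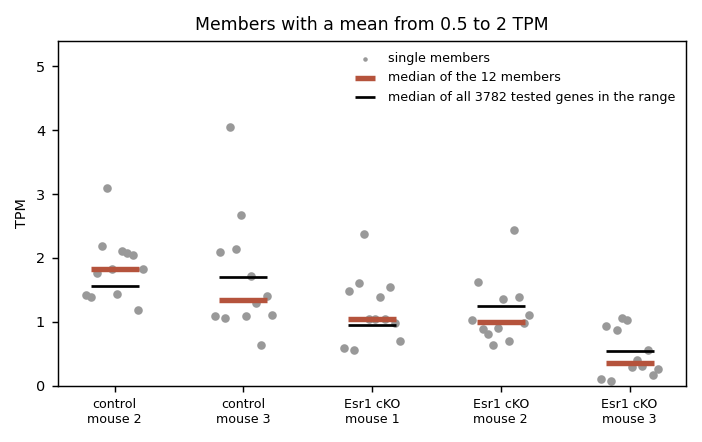
TPM of the 12 tested members with a mean from 0.5 to 2 TPM, by library (grey points), with the members' median (red) and the median of all 3782 tested genes in that range (black). Both medians are lowest in knockout mouse 3, where they are 0.35 and 0.54 TPM.

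The lowest genes lay on the lower side. All 12 tested members with a mean from 0.5 to 2 TPM (Wnt1, Wnt3, Wnt7a, Wnt8a, Wnt8b, Wnt9b, Wnt10a, Wnt10b, Wif1, Dkk4, Rspo4 and Fzd9) had a fold change below 0, with a median of -0.56, and all 12 lay below both controls in knockout mouse 3. The 3782 tested genes in the same range were mostly lower too, with a median log2 fold change of -0.49 and 83.0% of them below both controls in knockout mouse 3. They had a median of 1.57 and 1.69 TPM in control mice 2 and 3 and 0.95, 1.25 and 0.54 TPM in knockout mice 1, 2 and 3. Wif1 and Wnt10b, at an unadjusted p under 0.05, belong to these low genes, as do 7 of the 10 members that were lower without overlap. The part of this shift in their values was not tested. Among the 24 members with a mean from 5 to 50 TPM, 15 were above 0 and 9 below, with a median of 0.22, beside 0.082 over all 9737 tested genes in that range.

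The receptors were led by Lrp6, the main Wnt co-receptor, and Fzd1. Lrp6 measured 92.3 and 76.4 TPM in the controls, against 82.9, 66.7 and 70.8 TPM in knockout mice 1, 2 and 3, with overlapping groups (log2 fold change -0.20, SE 0.18, limma adjusted p 0.612). Fzd1 measured 44.7 and 53.4 TPM in the controls, against 76.8, 58.5 and 84.1 TPM in the knockout libraries, all 3 above both controls (log2 fold change 0.56, SE 0.21, limma adjusted p 0.336). Fzd7 and Lrp5, the other co-receptor, were also higher without overlap. Fzd7 measured 30.8 and 34.3 TPM in the controls, against 44.9, 38.9 and 38.2 TPM in the knockout libraries (log2 fold change 0.31, SE 0.17, limma adjusted p 0.438). Lrp5 measured 31.1 and 28.5 TPM in the controls, against 33.5, 44.9 and 42.2 TPM in the knockout libraries (log2 fold change 0.41, SE 0.19, limma adjusted p 0.392).

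Among the receptors, Fzd6 differed most between the knockout mice. It measured 22.4 and 20.4 TPM in the controls, against 17.3, 52.9 and 69.8 TPM in knockout mice 1, 2 and 3, and was chosen for description after this was seen. Mouse 1 was below both controls and mice 2 and 3 were more than 2-fold above them (log2 fold change 0.88, SE 0.53, limma adjusted p 0.480, and 1.47 with adjusted p 0.0152 without mouse 1, 0.00885 to 0.937 over 15 alternatives). Fzd3, like Fzd6 a receptor with a role in planar polarity, had the same order, with 9.74 and 10.5 TPM in the controls and 7.67, 17.9 and 17.9 TPM in the knockout libraries (log2 fold change 0.39, SE 0.37, limma adjusted p 0.622, and 0.77 with adjusted p 0.0441 without mouse 1, 0.0441 to 0.937 over 15 alternatives). Like Fzd6, Fzd3 did not meet the rule for named members given with the processing. The other frizzleds (Fzd2, Fzd4, Fzd5, Fzd8, Fzd9 and Fzd10) had log2 fold changes from -0.56 (Fzd9) to 0.13 (Fzd8).

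**Figure D3:**
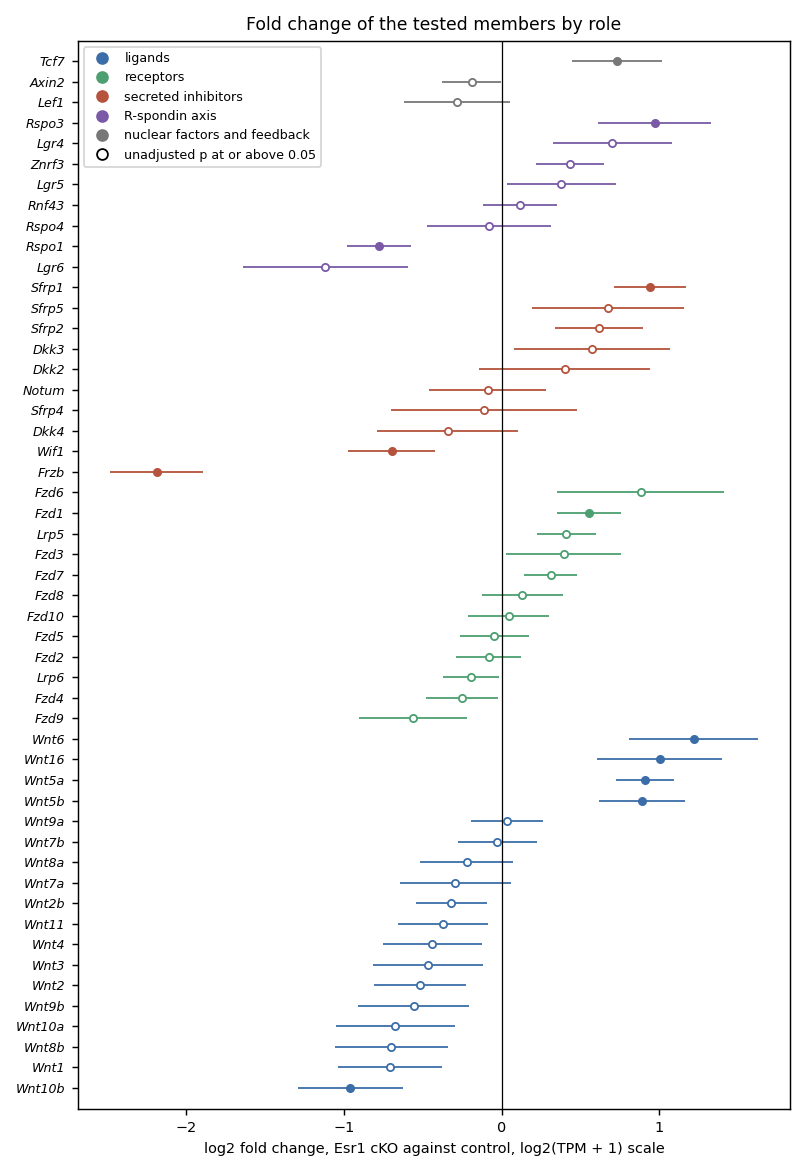
Log2 fold change of knockout against control with its standard error (bars) for the 51 tested members, coloured by role, with filled points for an unadjusted p under 0.05 (limma). Frzb, at -2.19, lies farthest from 0, and the higher members reach at most 1.22 (Wnt6).

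The secreted inhibitors held the member with the biggest difference in either direction. Frzb, a secreted frizzled-related protein that binds Wnts outside the cell, measured 33.1 and 23.4 TPM in control mice 2 and 3, against 4.08, 4.76 and 7.68 TPM in knockout mice 1, 2 and 3. All 3 knockout libraries were below both controls by a wide gap, with means of 28.3 ± 6.86 (SD, n = 2) and 5.51 ± 1.91 TPM (SD, n = 3), a 5.14-fold difference. Frzb had a log2 fold change of -2.19 (SE 0.30), which at an adjusted p of 0.0968 (limma) did not pass 0.05. It was -2.03 with adjusted p 0.0200 without mouse 1 (adjusted p 0.0146 to 0.674 over 15 alternatives), and lay between -2.43 and -1.95 in all 15 alternatives run. The gene lies at GRCm38 chr2:80411970-80447625 on the minus strand, and its longest annotated transcript has 6 exons.

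Sfrp1, a related Wnt-binding protein and the most abundant member in all 5 libraries, lay the other way. It measured 188 and 203 TPM in the controls, against 491, 343 and 316 TPM in knockout mice 1, 2 and 3. All 3 were above both controls and mouse 1 was highest (means 195 ± 10.2, SD, n = 2, and 383 ± 94.2 TPM, SD, n = 3). On the log2 scale Sfrp1 differed by 0.94 (SE 0.23, limma adjusted p 0.198), and by 0.75 with adjusted p 0.0276 without mouse 1, 0.0241 to 0.858 over 15 alternatives. Sfrp1 lies at GRCm38 chr8:23411502-23449632 on the plus strand. The ratio of Sfrp1 to Frzb, both per length, was therefore higher in every knockout mouse than in either control.

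Sfrp2 measured 26 and 30.4 TPM in the controls, against 31.1, 44.5 and 60.2 TPM in the knockout libraries (log2 fold change 0.62, SE 0.28, limma adjusted p 0.388, and 0.86 with adjusted p 0.0452 without mouse 1, 0.0201 to 0.937 over 15 alternatives). Mouse 1 was barely above the controls, and an antisense gene, Gm26771, overlaps Sfrp2 exons. Dkk3, a member of the Dickkopf family that differs from the others in not being an established LRP blocker, measured 83.3 and 110.3 TPM in the controls, against 68.7, 176 and 242 TPM in knockout mice 1, 2 and 3. Mouse 1 was below both controls, and mice 2 and 3 were above them (log2 fold change 0.57, SE 0.49, limma adjusted p 0.596, and 1.10 with adjusted p 0.0352 without mouse 1, 0.00793 to 0.937 over 15 alternatives). Sfrp4, picked out after its values were seen, varied most among the knockout mice, at 55.1, 96.8 and 265 TPM in mice 1, 2 and 3 against 103 and 143 TPM in the controls (log2 fold change -0.11, SE 0.59, limma adjusted p 0.938).

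Wif1, a Wnt-binding inhibitor, was low throughout, at 1.83 and 2.67 TPM in the controls, against 1.04, 0.90 and 1.03 TPM in the knockout libraries (log2 fold change -0.70, SE 0.28, limma adjusted p 0.351). Notum, the enzyme that removes the Wnt lipid, was between 5.08 and 12.5 TPM with overlapping groups, and Dkk1, Dkk2, Dkk4 and Sfrp5 had means over the 5 libraries from 0.75 TPM (Dkk1) to 5.75 TPM (Sfrp5). Summed over the 11 inhibitors, the level was 455 and 532 TPM in the controls and 670.1, 696 and 914 TPM in knockout mice 1, 2 and 3. Different genes made up that sum: Sfrp1 was 73.2% of it in mouse 1 and 34.5% in mouse 3. Without Sfrp1 the sum was 267 and 329 TPM in the controls and 179, 353 and 599 TPM in the knockout libraries, so the groups then overlapped.

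**Figure D4:**
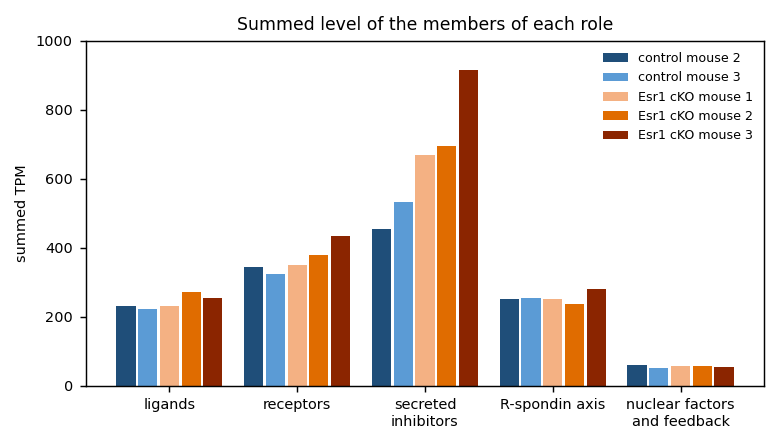
Summed TPM of the members of each role, 1 bar per library. The secreted inhibitors stand at 455 and 532 TPM in the controls and 670.1 to 914 TPM in the knockout libraries. The receptors stand at 343 and 323 TPM in the controls and 350 to 433 TPM in the knockout libraries. The ligands stand at 230.0 and 222 TPM in the controls and 232 to 272 TPM in the knockout libraries. Neither sum overlaps, but in both, knockout mouse 1 (350 and 232 TPM) is close to control mouse 2. The sums of the R-spondin axis and of the nuclear factors and feedback genes overlap between groups.

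In the R-spondin axis the 2 abundant ligands lay in opposite directions. Rspo1, a secreted enhancer of Wnt signalling, measured 122 and 121 TPM in the controls, against 83.3, 75.5 and 56.3 TPM in knockout mice 1, 2 and 3. The controls were nearly equal and all 3 knockout libraries were below them, with means of 122 ± 0.88 (SD, n = 2) and 71.7 ± 13.9 TPM (SD, n = 3). On the log2 scale Rspo1 differed by -0.78 (SE 0.20, limma adjusted p 0.214), and by -0.89 with adjusted p 0.0334 without mouse 1 (adjusted p 0.0188 to 0.872 over 15 alternatives). Rspo3 measured 31.7 and 62.3 TPM in the controls, against 102, 60.7 and 111 TPM in the knockout libraries. The controls differed about as much as the groups did, and knockout mouse 2 lay below control mouse 3 (log2 fold change 0.97, SE 0.36, limma adjusted p 0.334, and 0.50 without control mouse 2). The summed axis was level, at 252 and 255 TPM in the controls and 252, 236 and 280.0 TPM in the knockout libraries.

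Of the R-spondin receptors, Lgr4 measured 23.7 and 27.7 TPM in the controls, against 24.7, 47.2 and 65.0 TPM in knockout mice 1, 2 and 3 (a log2 fold change of 0.70, SE 0.38, limma adjusted p 0.438, and 1.08 with adjusted p 0.0309 without mouse 1, 0.0120 to 0.937 over 15 alternatives). Lgr6 measured 46.4 and 18.7 TPM in the controls, against 6.50, 19.4 and 17.1 TPM in the knockout libraries, so that control mouse 2 and knockout mouse 1 stood apart from 3 similar libraries. Both were described after their values were seen. Lgr5, a receptor and Wnt target known from stem cells, was between 6.74 and 16.4 TPM with overlapping groups. Of the ubiquitin ligases, Znrf3 measured 10.3 and 9.14 TPM in the controls, against 11.1, 13.7 and 15.9 TPM in the knockout libraries (log2 fold change 0.43, SE 0.22, limma adjusted p 0.420), and Rnf43 stayed between 5.18 and 7.26 TPM.

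The 3 nuclear and feedback genes, which read out canonical signalling in many tissues, did not share a direction. Axin2, a scaffold of the beta-catenin destruction complex and a feedback target, measured 50.4 and 38.0 TPM in the controls, against 40.7, 34.7 and 39.4 TPM in knockout mice 1, 2 and 3. Its groups overlapped (log2 fold change -0.19, SE 0.19, limma adjusted p 0.640), and the value was 0.0089 without control mouse 2. Tcf7, a TCF-family transcription factor also made by T cells, measured 7.41 and 10.4 TPM in the controls, against 12.8, 21.4 and 13.0 TPM in the knockout libraries (log2 fold change 0.73, SE 0.29, limma adjusted p 0.348). The T-cell marker Cd3e measured 9.8 and 13.7 TPM in the controls, against 35.9, 17.2 and 2.6 TPM in knockout mice 1, 2 and 3, and its part in the Tcf7 values was not tested. Lef1, a related factor, was between 1.75 and 4.36 TPM with overlapping groups.

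**Figure D5:**
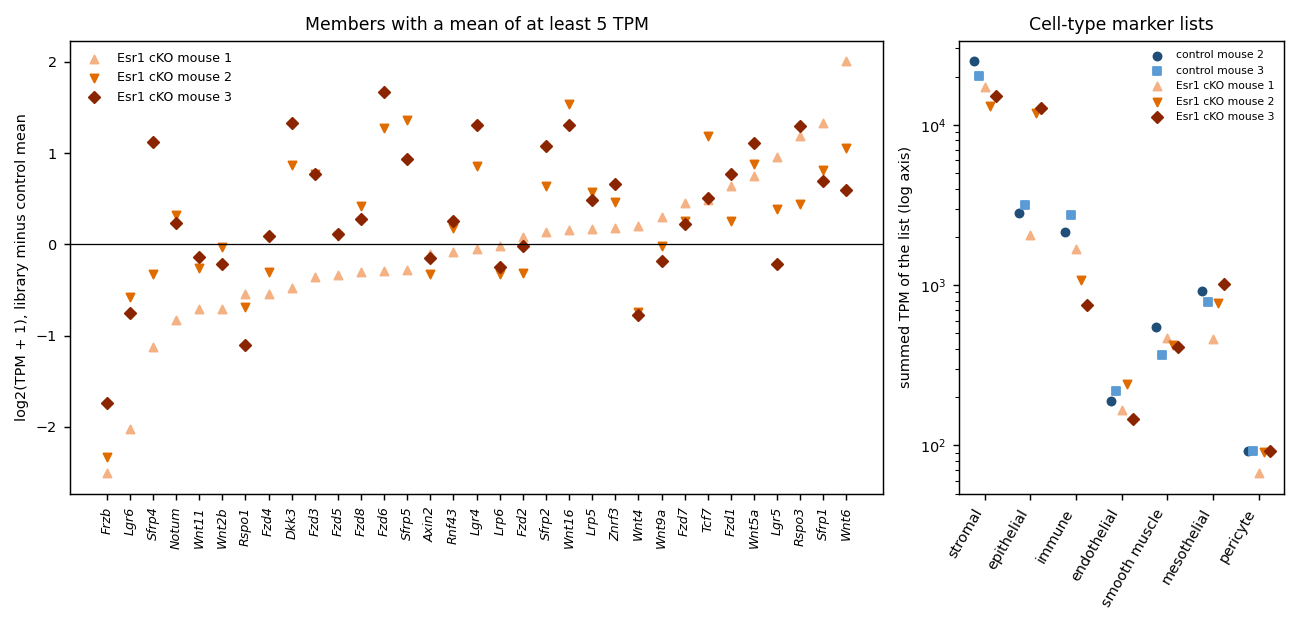
Left, difference of each knockout library from the control mean on the log2(TPM + 1) scale for the members with a mean of at least 5 TPM, ordered by knockout mouse 1. Right, summed TPM of the marker lists on a log axis by library. Dkk3, Fzd6 and Fzd3 are below 0 in mouse 1 and above it in mice 2 and 3, and the epithelial sum is likewise high in mice 2 and 3 alone.

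Knockout mouse 1 thus differed from mice 2 and 3 in many members. Mouse 1 was the only knockout library with Esr1 below the controls. The fit without it rests on knockout mice 2 and 3, at 85.0 and 169.9 TPM of Esr1. When mouse 1 was left out, 8 members rose (adjusted p under 0.05, limma): Dkk3, Fzd3, Fzd6, Lgr4, Sfrp1, Sfrp2, Wnt16 and Wnt5a. These are 15.7% of the tested members, against 5.35% of all genes. Another 3 fell, Frzb, Rspo1 and Wnt4, 5.88% of the members against 2.63% of all genes. In 9 members mice 2 and 3 lay above both controls while mouse 1 did not (Dkk3, Fzd3, Fzd5, Fzd6, Fzd8, Lgr4, Notum, Rnf43 and Sfrp5), 17.6% of the members and close to the 22.6% of all tested genes. The reverse, mice 2 and 3 below and mouse 1 not, held for Lef1, Lrp6, Wnt10a and Wnt4 (7.84%, against 6.1% of all tested genes). The summed epithelial markers had the first of these patterns, with 9 of 10 above both controls in each of mice 2 and 3 and 0 of 10 in mouse 1. No defining epithelial marker was at 0 in any library. The part of epithelial RNA in the values of those 9 members, and of Wnt16 and Sfrp2, was not tested. By definition, every member whose groups did not overlap lay outside the controls in mouse 1 too. Frzb, Rspo1, Wnt5a, Sfrp1, Wnt5b, Wnt6, Fzd1 and Fzd7 were among them. The 9 stromal markers, which include the collagens and Lum, summed to 24928 and 20124 TPM in the controls and to 17168, 13152 and 15199 TPM in knockout mice 1, 2 and 3, with 5 of the 9 below both controls in all 3. Those 5 were Col1a1, Col1a2, Col3a1, Lum and Dpt, while Pdgfra, Pdgfrb, Vim and Dcn were not below both controls in all 3. Frzb and Rspo1 were lower in the same libraries as those 5 markers. The part of that marker difference in the values of Frzb and Rspo1 was not tested. Of the 6 mesothelial markers, 4 lay below both controls in all 3 (Msln, Upk3b, Lrrn4 and Upk1b) and 1 above (Wt1). The remaining marker, Krt19, measured 268 and 228 TPM in the controls, against 135, 330 and 545 TPM in knockout mice 1, 2 and 3. Like the epithelial sum, Krt19 was high in mice 2 and 3 alone. The mesothelial sum, which includes Krt19, overlapped between groups. The part of the mesothelial differences in the values of Frzb and Rspo1 was not tested.

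Beyond these members, 60 of 61 other Wnt pathway genes (secretion, alternative receptors, the destruction complex, polarity genes) were found and tested. At an unadjusted p under 0.05, 2 were higher and 3 lower, shares no greater than the 3.7% and 9.87% of all genes, 0 had an adjusted p under 0.05 (limma), and the median log2 fold change was 0.053. Dact1, an intracellular modulator that binds Dishevelled, measured 19.4 and 18.7 TPM in the controls, against 32.8, 33.9 and 35.5 TPM in knockout mice 1, 2 and 3, with little spread inside either group (log2 fold change 0.80, SE 0.16, limma adjusted p 0.160, and 0.83 with adjusted p 0.0275 without mouse 1, 0.0244 to 0.775 over 15 alternatives). Vangl1, a planar polarity protein, had a log2 fold change of 0.42 (SE 0.18, limma adjusted p 0.365). Trabd2b, a protease that cuts Wnt ligands, measured 16.9 and 9.39 TPM in the controls, against 8.28, 3.68 and 5.17 TPM in the knockout libraries (log2 fold change -1.08, SE 0.37, limma adjusted p 0.309). Ptk7, a Wnt co-receptor of the polarity branch, measured 90.7 and 77.7 TPM in the controls, against 67.1, 62.7 and 58.2 TPM in the knockout libraries (log2 fold change -0.42, SE 0.16, limma adjusted p 0.345). Without knockout mouse 1, 5 of the 60 rose (Gpc4, Apcdd1, Dact1, Gsk3b and Vangl2) and 0 fell at an adjusted p under 0.05 (limma). Of all genes, 5.35% rose and 2.63% fell in that fit. At an unadjusted p under 0.05, 14 of the 60 were higher and 3 lower, against 17.7% and 11.6% of all genes. Of the 5 that rose, only Dact1 lay above both controls in mouse 1 too. Gpc4, Apcdd1, Gsk3b and Vangl2 measured 54.2, 45.7, 64.4 and 9.51 TPM in mouse 1, each below both controls. Their lower control values were 54.8, 49.8, 66.1 and 13.8 TPM. The part of epithelial RNA in the values of these genes was not tested.

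Of 10 further genes often named as Wnt targets, 2 were higher and 1 lower at an unadjusted p under 0.05 (3.7% and 9.87% of all genes), and the median log2 fold change was -0.29. Myc measured 133 and 151 TPM in the controls, against 103, 90.4 and 64.6 TPM in knockout mice 1, 2 and 3 (a log2 fold change of -0.74, SE 0.23, limma adjusted p 0.267, and -0.88 with adjusted p 0.0430 without mouse 1, 0.0320 to 0.937 over 15 alternatives). Ccnd1, the gene of cyclin D1, measured 42.8 and 46.7 TPM in the controls, against 50.3, 73.3 and 76.7 TPM in the knockout libraries (log2 fold change 0.55, SE 0.22, limma adjusted p 0.355, and 0.73 with adjusted p 0.0281 without mouse 1, 0.0227 to 0.937 over 15 alternatives). Ccn4, a matricellular protein, measured 5.69 and 6.35 TPM in the controls, against 25.7, 13.5 and 8.21 TPM in knockout mice 1, 2 and 3, the same order as Wnt6 (log2 fold change 1.12, SE 0.42, limma adjusted p 0.341). With Axin2 overlapping between groups, Myc lower and Ccnd1 higher, the targets did not share a direction.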

How the data were processed

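The deposited table gives TPM per gene for 5 libraries, 2 control and 3 knockout. The authors made the TPM from reads aligned with STAR, per the name of the table, on build mm10, per the submitters' processing notes. The STAR version, counter and annotation are not given in the sources used here. Libraries were made with a low-input SMARTer kit, per the labels' protocols. Groups and mouse numbers come from the labels.

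Values were taken as log2(TPM + 1) and genes with at least 1 TPM in at least 2 libraries were fitted with limma 3.58.1 in R 4.3.3 (eBayes with trend, genotype as the only term, two-sided, Benjamini-Hochberg over 19292 genes, threshold 0.05). This scale understates the change of low genes. The exact permutation test used the 10 assignments of the libraries. Both the fit and the depth estimate were tested on simulated data. Depth relative to control mouse 2 came from the steps between low values, and 33 single-exon genes put 1 TPM of a transcript of 1 kb at about 6.72 to 13.9 reads. Scripts used Python 3.11.15. The labels mention no molecular identifiers, so several reads may come from 1 molecule.

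The 20 named members have an unadjusted p under 0.05, or no overlap and a mean of at least 5 TPM, or are among the 2 most abundant of their role. Wnt4, Wnt7a, Fzd3, Fzd6, Sfrp4, Lgr4 and Lgr6 do not meet this rule and were given with values outside it. The members and lists were chosen with earlier results of these data known. The counts of members, their median and the fold changes of the named members were recomputed with a pseudocount of 0.1, other filters and scalings, other variance models, library weights, a replicate block, and each library left out. Counts of members without overlap were recomputed only where the filter, the scaling or the libraries differed. Sums, shares and motif counts had no alternative.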

Additional observations from a re-analysis of the deposited data

How the results depend on the processing

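Members past an adjusted p of 0.05 numbered 0 in either direction, and 3 higher and 2 lower with library weights (Sfrp1, Wnt16 and Wnt5a, and Frzb and Rspo1; 1.35% and 2.05% of all genes) and 0 and 1 at a threshold of 0.1, where Frzb passed (0.0726% and 0.114% of all genes). Leaving out 1 library at a time, they ranged from 0 to 8 and from 0 to 3, with the high values without knockout mouse 1 alone. With the mouse number as a replicate block they were 8 and 3 (6.04% and 3.59% of all genes). Mouse 1 has no partner there, so this fit rests on mice 2 and 3. The deviations of same-numbered mice from their group means correlated at -0.060 and -0.072. The deviations of control mice 2 and 3 are mirror images, so these values cannot decide whether same-numbered mice belong together. The labels state no pairing.

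Without adjustment, 8 higher and 4 lower members had a p under 0.05. Library weights gave 15 and 7 (14.7% and 13.4% of all genes), the replicate block 15 higher (17.2% of all genes), and a mean of at least 5 TPM 2 lower (5.92% of all genes). Leaving out 1 knockout library gave 6 to 15 higher and 3 to 6 lower, with 15 and 6 without knockout mouse 1 (17.7% and 11.6% of all genes). In the fits without a control mouse, the remaining one is assumed to vary like the knockout mice. Members without overlap between groups, 11 higher and 10 lower, ranged from 12 to 20 and from 12 to 17 when 1 library was left out. With fewer libraries, groups are less likely to overlap in any gene. Of all genes, 34.8% were then higher and 27.9% lower without knockout mouse 1, and 30.8% lower without control mouse 3. The lower members numbered 6 with quantile normalization (15.9% of all genes). They numbered 2 with a mean of at least 5 TPM (12.9% of all genes), a filter that removes low members by construction. The median log2 fold change of -0.078 was 0.31 under that filter and 0.087 with quantile normalization. Otherwise the cause was not tested.

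For the 20 named members, 276 alternative values kept their direction and side of the threshold, 20 kept their direction and passed it, and 1 changed sign: Axin2 ranged from -0.39 to 0.0089 when 1 library was left out. Depth limits the lowest members: by the approximate scale, 9 of the 54 had under 10 reads in at least 1 library.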
